A study of Mus musculus with 6 samples.

Results

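The interleukin-6 (IL-6) family genes examined here are 10 of the 32285 genes counted, chosen by symbol and not by their values. The list holds 5 ligands, Il11, Il6, Lif, Osm and Clcf1, and 5 receptor chains, the shared chain Il6st (gp130) and the partner chains Il6ra, Il11ra1, Lifr and Osmr. Each symbol named 1 gene of the matrix. The question addressed was which cells of the cortex held the ligand transcripts and which held the receptor transcripts. Single cells came from the brain cortex of male mice aged 8 to 12 weeks that were heterozygous for the RGS5::GFP reporter, in which GFP replaces 1 allele of Rgs5, so that this pericyte marker was counted from the other allele. All mice had a permanent occlusion of the middle cerebral artery, a model of ischemic stroke. The 6 groups were the stroke side (IPSI) and the other side (Contra) of the brain 1, 12 and 24 h after the occlusion, with 1 library each, from 3 mice in all. Live cells were sorted after mature neurons had been depleted, so that neurons, a further source and target of these cytokines, were largely outside the sample. The deposited matrix numbers its libraries 1 to 6, and nothing in the sources used here ties a number to a group. No statement on hemisphere or time was therefore possible, each library is given as a numbered sample with its own value, and no test between groups was made.

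Cytokines of this family signal through gp130, a receptor chain that most cells carry. IL-6 and IL-11 first bind their own chains, IL-6Rα and IL-11Rα, and these complexes then bring gp130 molecules together. LIF pairs gp130 with the LIF receptor, oncostatin M (OSM) in mice mainly pairs it with the OSM receptor, and CLCF1 acts through the CNTF receptor together with gp130 and the LIF receptor. Receptor engagement activates JAK kinases and STAT3, and SOCS3 limits the signal. In the injured brain the family is known for acute-phase responses, reactive astrocytes and changes of the vessel wall. A cell can respond to a ligand directly where it carries gp130 and the partner chain, and IL-6Rα shed from other cells can stand in for the cell's own chain.

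The genes are spread over 8 chromosomes (build mm10, GRCm38, GENCODE vM21). Of the ligands, Il11 lies at chr7:4772373-4782859 on the reverse strand, Il6 at chr5:30013114-30019981, Lif at chr11:4257557-4272514, Osm at chr11:4236420-4241026 and Clcf1 at chr19:4214238-4223490, all 4 on the forward strand. Lif and Osm are neighbours on chromosome 11. Of the chains, Il6st lies at chr13:112464070-112510086, Il11ra1 at chr4:41699989-41769474 and Lifr at chr15:7090614-7197489 on the forward strand, and Il6ra at chr3:89864059-89913196 and Osmr at chr15:6813577-6874969 on the reverse strand. Il11ra1 overlaps Galt on its own strand and 5 genes on the opposite strand, so that its count may hold reads of Galt. A near copy, Gm13305, shares 57.7% of the 31-base words of Il11ra1 transcripts, and 46.7% of those in the last 300 bases, and had 2 UMIs in all cells against 3809 for Il11ra1. Its sister copy Il11ra2 shares 46.7% of the words in the last 300 bases and had no UMI, so that reads of this family could have been split or dropped.

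Il11, Il6 and Lif were counted together in a small set of pericytes described further on, and their promoters are shown for that reason. Each window holds the 250 bases before a start site, taken from RefSeq (GRCm38.p6) and written 5′ to 3′ along the gene's strand. The Il11 window chr7:4778142-4778391 (reverse strand) precedes the main transcript and lies in an intron of longer ones. The Il6 window is chr5:30012864-30013113 and the Lif window chr11:4257318-4257567, both on the forward strand. Capitals mark motif matches on either strand, namely AP-1 (TGANTCA), the CRE core (TGACGT, here read as ACGTCA on the other strand) and NF-kB (GGGA and TTCC with any 2 bases between).
Il11: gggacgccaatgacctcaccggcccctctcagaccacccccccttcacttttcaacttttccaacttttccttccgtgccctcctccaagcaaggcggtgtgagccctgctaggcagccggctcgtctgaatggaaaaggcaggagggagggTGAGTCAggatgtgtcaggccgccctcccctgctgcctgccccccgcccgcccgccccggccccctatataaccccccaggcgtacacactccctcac
Il6: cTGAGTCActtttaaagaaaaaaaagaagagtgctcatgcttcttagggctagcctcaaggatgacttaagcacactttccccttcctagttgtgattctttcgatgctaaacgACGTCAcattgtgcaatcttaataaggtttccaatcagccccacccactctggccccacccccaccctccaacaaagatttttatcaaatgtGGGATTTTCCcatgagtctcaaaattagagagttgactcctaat
Lif: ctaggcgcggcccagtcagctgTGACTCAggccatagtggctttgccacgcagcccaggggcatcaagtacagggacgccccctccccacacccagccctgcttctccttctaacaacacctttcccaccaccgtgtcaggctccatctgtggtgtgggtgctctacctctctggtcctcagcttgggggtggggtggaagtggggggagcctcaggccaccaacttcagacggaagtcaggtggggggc
All 3 windows held 1 AP-1 match, at bases -98 to -92 for Il11, -249 to -243 for Il6 and -228 to -222 for Lif, counted back from the start site. A further Il11 window, before the longer transcripts, held none of the motifs. The Il6 window also held the CRE core at -136 to -131 and NF-kB at -44 to -35. Among 32851 promoter windows of the same length, 6.75% held AP-1, 6.47% the CRE core and 1.21% NF-kB. A STAT motif (TTCNNNGAA), found in 7.02% of all windows, was in none of these 3. Windows were found for 8 of the 10 genes, Osm and Clcf1 being the others, and those of the receptor chains held none of the 4 motifs. These matches are letters in a window and were not set against any binding data.

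Over all barcodes the libraries held 12427757 to 40793772 UMIs. After filtering, 17327 cells remained, and median depths, taken before the removal of 30 cells by hemoglobin, were 5053 to 5660 UMIs per cell. A UMI is a short random barcode by which copies of 1 captured transcript are recognised and counted as 1. Levels are the UMIs of a gene per 1000000 UMIs of the same cells (CPM), with exact 95% intervals that cover counting error only, since cells are not replicates. These are counts of transcript 3′ ends and are compared between cells for 1 gene, not between genes. Clusters were named from marker genes, and each class name stands for cells that resemble that type. There were 8122 microglia, 2783 oligodendrocytes, 2658 endothelial cells, 1165 astrocytes, 833 pericytes, 377 monocyte-derived macrophages, 340 neuroblasts, 178 neutrophils, 169 smooth muscle cells, 127 perivascular macrophages, 95 T and 55 B lymphocytes. Monocyte-derived macrophages were nearly all in libraries 4 and 6, with 122 and 237 cells. Clusters stayed unnamed for reasons such as too few markers, a second class that scored nearly as high or a majority of called doublets. The 31 fibroblasts and 22 choroid plexus cells were too few to be ranked. Called doublets made up 1.91% of cells, and 26 barcodes were shared between libraries, where 17.25 would be shared by random draws. For each class a free-RNA level was computed, which is the CPM that RNA floating in the suspension would give there, judged from the markers of other classes.

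**Figure D1:**
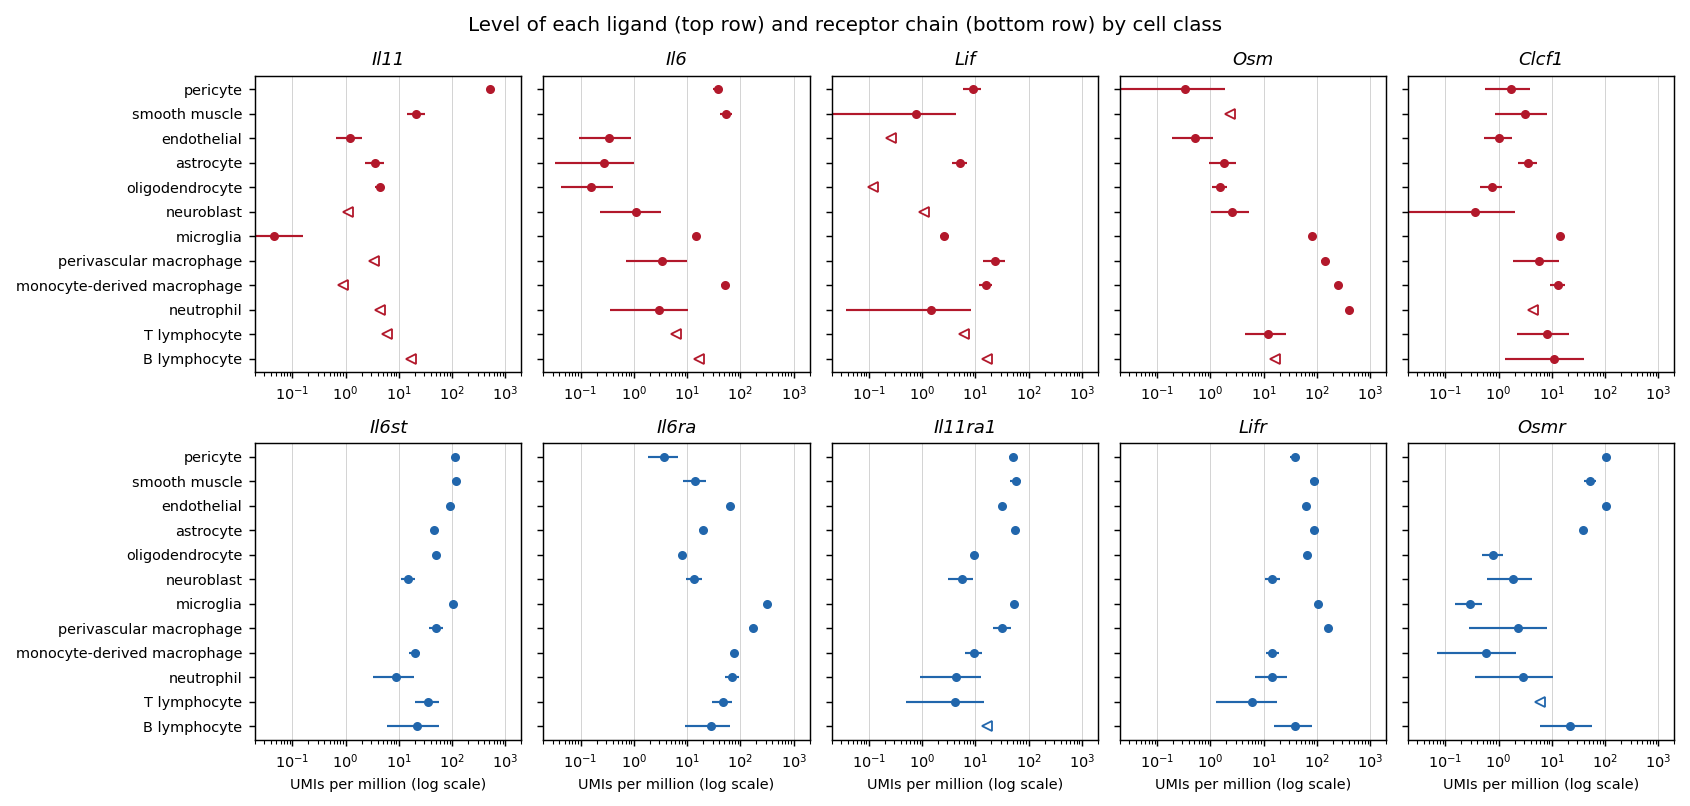
Level of each ligand (red, top) and receptor chain (blue, bottom) in 12 cell classes, in CPM on a log axis; points are pooled over 6 libraries, bars are 95% counting intervals cut at the left edge, and open triangles mark the upper limit (3 counts) where no UMI was found. Il11 stands out in pericytes at 504 CPM and Osm in the 4 myeloid classes, while Osmr is near 0 in microglia at 0.289 CPM and at 103 CPM in pericytes.

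The ligands fell into different cells. Il11 was counted mainly in vessel wall cells, since pericytes, smooth muscle and endothelial cells held 75.9% of its 2008 UMIs. Most of these, 1475 UMIs, lay in the small set of 55 pericytes described further on, not in the vessel wall at large. Smooth muscle had 27 UMIs, 26 of them in 1 cell. Endothelial cells stood at 1.202 CPM, below oligodendrocytes at 4.357 CPM. The other 4 ligands were counted mainly in myeloid cells, the microglia, macrophages and neutrophils, which held 96.2% of Osm, 87.7% of Clcf1, 76.0% of Il6 and 70.9% of Lif UMIs. These shares also reflect the number of myeloid cells, 8804 in all. By level, Lif stood at 3.85 CPM in the myeloid cells together and at 5.12 CPM in astrocytes. Il6 stood at 16.9 CPM in the myeloid cells and at 11.6 CPM in the vessel wall. Only Il11 was at least 2-fold higher in its highest class than in the next, 1 of 10 genes, where 26% of 12934 genes passed the same rule. With 10 genes, that count is too small to set the family apart from all genes. The rule also passes over genes shared by related classes, such as Osm in the myeloid cells.

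Il11, a cytokine known for actions on stromal and vascular cells, reached 504 CPM in pericytes (479 to 531) and 21.2 CPM in smooth muscle, a ratio of 23.8 (16.3 to 36.3) between the ranked classes. By library, pericytes had 0, 0, 1.8, 553, 0 and 2478 CPM in libraries 1 to 6. Libraries 4 and 6 held nearly all of it, whereas the other 4 held 2 UMIs together. Without library 6 the pooled pericyte level was 123 CPM, still the highest among the ranked classes. Most of it was in few cells: only 141 cells of the whole series had an Il11 UMI, and 1 pericyte of library 6 held 242 of them. The smooth muscle level rested on 1 cell of library 6 with 26 of the 27 UMIs. Cells outside the ranked classes held Il11 as well. The 142 unnamed mural cells had 142 CPM (121 to 166), with 484 and 308 CPM in libraries 4 and 6, on 159 UMIs in 6 cells. Markers of other classes stood in these cells at 78.4% of their level in free RNA, against 2.14% in pericytes. The 31 fibroblasts had 931 CPM (801 to 1075), above the pericytes, but a single cell, of library 4, accounted for 173 of the 184 UMIs. Microglia had 2 UMIs in 8122 cells, 0.0445 CPM, below their free-RNA level of 0.0726 CPM. No UMI was found in macrophages of either kind, neuroblasts, neutrophils or lymphocytes.

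Oligodendrocytes, the myelin-forming cells, also held Il11 at 4.36 CPM (3.58 to 5.25), above their free-RNA level of 0.216 CPM. By library the values were 2.42, 4.91, 2.31, 2.39, 2.69 and 18.9 CPM, all above 0. The highest, in library 6, owed 34 of its 43 UMIs to 1 cell. This low level was counted in all 6 libraries, whereas the fewer pericytes had no UMI in libraries 1, 2 and 5. The upper limits of pericytes there, 15.2, 16.7 and 11.2 CPM, lay above the oligodendrocyte level, so that a like level in pericytes could not be seen.

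Il6, the founding member and a driver of the acute-phase response, had no single highest class. Smooth muscle stood at 54.1 CPM (42.1 to 68.5) and monocyte-derived macrophages at 51.2 CPM, a ratio of 1.06 (0.788 to 1.40). Pericytes followed at 37.8 CPM and microglia at 14.7 CPM, and microglia held 59.8% of all Il6 UMIs by their number. Leaving out library 4 moved the smooth muscle to macrophage ratio to 3.47, and leaving out library 6 moved it to 0.292. The macrophage level was uneven, 132 CPM in library 4 and 4.05 CPM in library 6, and the 3 cells with the most Il6 UMIs were macrophages of library 4. Smooth muscle had 23.2, 11.8 and 82.2 CPM in libraries 3, 5 and 6, and 1 cell held 19 of the 34 UMIs of library 6. Its 19 cells of library 4 had 121 CPM on 16 UMIs, and its 4 cells of library 2 had 232.7 CPM on 8 UMIs. The 2 smooth muscle cells of library 1 had no UMI. Pericytes had 84.5 and 137 CPM in libraries 4 and 6 and no UMI in the other 4.

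In microglia the 6 libraries had 15.03, 16.1, 17.5, 16.2, 16.6 and 2.20 CPM of Il6. Library 6 lay far below the other 5, with 14 UMIs in 991 cells and an interval that ended below theirs. By cluster it rested on 2 to 6 UMIs. In clusters 0 and 5 library 6 was the lowest, at 3.82 CPM against 13.05 to 18.4 CPM and at 2.56 CPM against 13.55 to 26.2 CPM. In cluster 4 it had 1.4 CPM against 20.5 CPM in library 4, the other library with many of these cells. In cluster 1 it was not the lowest, with 4.24 CPM where library 2 had 3.42 CPM, and its interval, 0.514 to 15.3 CPM, reached those of all others. Its Osm level in the same cells, 91.0 CPM, was not low. Astrocytes, endothelial cells and oligodendrocytes had 0.277, 0.344 and 0.158 CPM, on 2, 4 and 4 UMIs.

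Lif, a cytokine known in neural injury and stem cell maintenance, was the scarcest ligand with 271 UMIs. Perivascular macrophages had 22.9 CPM (14.0 to 35.4) and monocyte-derived macrophages 15.5 CPM, a ratio of 1.48 (0.836 to 2.51), so that their order was not resolved. Pericytes had 8.84 CPM, astrocytes 5.12 CPM and microglia 2.63 CPM. No UMI was found in 2783 oligodendrocytes or 2658 endothelial cells. Pericytes had Lif only in libraries 4 and 6, at 23.9 and 27.3 CPM. Astrocytes had 2.1, 5.5, 1.6, 9.3, 5.3 and 9.4 CPM, and microglia were highest in libraries 4 and 6 as well, at 5.03 and 4.72 CPM against 0.685 to 1.47 CPM in the others. Lif in these 3 classes was thus highest in the same 2 libraries, but the astrocyte order was not resolved. Astrocytes of library 6 had 6 UMIs in 3 cells, with an interval of 3.45 to 20.5 CPM that reached those of libraries 2 and 5.

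Osm, a cytokine of activated leukocytes, was ordered across the myeloid classes with intervals that did not include 1 at any step. Neutrophils had 409 CPM (362 to 460), monocyte-derived macrophages 245 CPM, perivascular macrophages 142 CPM and microglia 82.4 CPM. T lymphocytes followed at 12.2 CPM. Outside the leukocytes, Osm stood at 1.80 CPM in astrocytes, 1.51 CPM in oligodendrocytes, 0.515 CPM in endothelial cells and 0.340 CPM in pericytes, each below the free-RNA level of that class. The share of cells with an Osm UMI was 53.4% of neutrophils and 0.188% of endothelial cells, at median depths of 3126 and 4000 UMIs.

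Every library held Osm in microglia, at 75.1, 80.7, 60.2, 122, 46.5 and 91.0 CPM. Library 4 was the highest and library 5 the lowest. Neutrophils had 550, 490 and 166 CPM in libraries 3, 4 and 6, so that neutrophils of library 6 lay below its macrophages, which had 250 CPM. The pooled ratio of neutrophils to monocyte-derived macrophages, 1.67, was 1.27 without library 4 and 2.09 without library 6. Perivascular macrophages were more even, at 164, 179, 110 and 129 CPM in libraries 3 to 6.

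Clcf1, which is secreted with a partner protein and acts on neural cells, was low everywhere. Microglia had 14.4 CPM (13.3 to 15.6) and monocyte-derived macrophages 12.9 CPM, a ratio of 1.12 (0.824 to 1.56). B and T lymphocytes had 11.1 and 8.16 CPM on few UMIs, and no neighbours in the order of the 11 classes with a UMI differed beyond their intervals. By library, microglia had 19.8, 14.1, 19.01, 11.1, 15.6 and 6.45 CPM, lowest in library 6. Clcf1 overlaps another gene, AC109138.7, on its own strand.

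**Figure D2:**
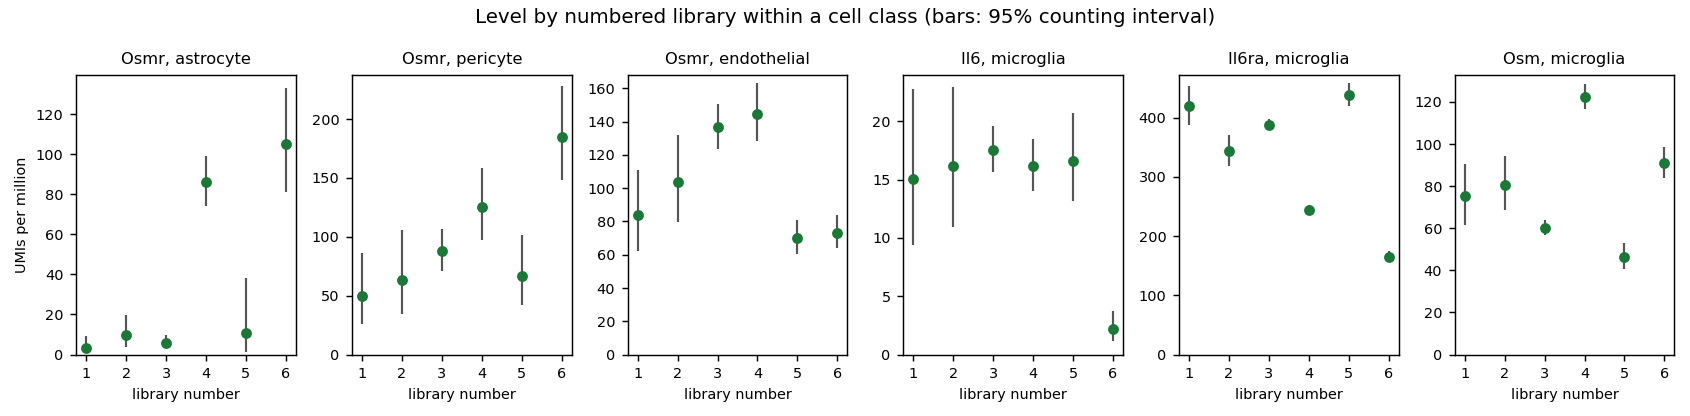
Level of 4 transcripts in 4 cell classes for each numbered library, in CPM on a linear axis that starts at 0; bars are 95% counting intervals. Osmr in astrocytes is at 86.0 and 105 CPM in libraries 4 and 6 and at 10.7 CPM or less in the others, and Il6 in microglia is low in library 6.

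The shared chain Il6st was found in every ranked class. Smooth muscle had 118 CPM (99.6 to 138), pericytes 115 CPM, microglia 103 CPM and endothelial cells 91.6 CPM. Perivascular macrophages, oligodendrocytes and astrocytes formed a lower tier at 50.4, 49.6 and 44.9 CPM, within which no neighbours differed. Monocyte-derived macrophages had 19.9 CPM, and neutrophils had 8.79 CPM against a free-RNA level of 8.78 CPM. gp130 transcripts were thus not detectable above the floating RNA in neutrophils, the cells with the most Osm.

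By library, pericytes had 82.6, 126, 93.1, 131, 113 and 162 CPM of Il6st. Endothelial cells had 58.3, 87.6, 76.1, 103, 86.3 and 112 CPM. Library 6 was highest and library 1 lowest in both classes, but 1 pericyte held 15 of the 77 pericyte UMIs of library 6. Microglia ranged from 65.6 CPM in library 1 to 116 CPM in library 5. Smooth muscle had 57.9, 52.0 and 203 CPM in libraries 3, 5 and 6. Its 19 cells of library 4 had 181.5 CPM (116.3 to 270), so that library 6 was not alone in a high value. The 4 cells of library 2 had 145.5 CPM on 5 UMIs, and the 2 cells of library 1 had no UMI. Without library 6 the pooled smooth muscle level was 76.7 CPM, below that of pericytes.

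Il6ra, the chain that binds IL-6, was a myeloid transcript, with 90.4% of its 16403 UMIs in myeloid cells. Microglia had 320 CPM (315 to 325), perivascular macrophages 174 CPM, monocyte-derived macrophages 74.7 CPM and neutrophils 70.4 CPM. Outside the myeloid cells the endothelium had 65.0 CPM, which did not differ from neutrophils beyond the intervals. Pericytes had the lowest level of the 12 classes, 3.74 CPM on 11 UMIs, against a free-RNA level of 1.40 CPM. Microglia had 419, 344, 388, 245, 439 and 165 CPM by library. Libraries 4 and 6 lay below the other 4, and their intervals did not reach those of the others. By cluster the order was not always the same. In clusters 0 and 5 libraries 4 and 6 were lowest, at 332.5 and 311.6 CPM and at 266.8 and 256.4 CPM. Their intervals in cluster 0 reached that of library 2. In cluster 1 they had 373.5 and 343.6 CPM, and library 2 was lowest at 318 CPM. Cluster 4, found mostly in libraries 4 and 6, had 129.6 and 102.9 CPM there, and the part of cell mix was not tested. Endothelial cells had 51.5, 27.1, 87.1, 62.6, 69.6 and 51.3 CPM, with library 2 lowest and library 3 highest.

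Il11ra1, the chain that binds IL-11, was even across the classes that held most of it. Smooth muscle had 57.3 CPM, astrocytes 54.7 CPM, microglia 52.3 CPM and pericytes 50.3 CPM, and no neighbours among these 4 differed. Perivascular macrophages and endothelial cells had 32.1 and 31.8 CPM, and the other ranked classes were below 10 CPM. Across libraries, pericytes had 45.5, 54.2, 51.5, 47.8, 42.6 and 56.7 CPM, and microglia ranged from 43.7 to 58.6 CPM. The spread was wider in endothelial cells, from 22.3 to 38.0 CPM, in astrocytes, from 31.9 to 64.5 CPM, and in the perivascular macrophages of 4 libraries, from 16.3 to 67.4 CPM. The 31 fibroblasts had 278 CPM. In pericytes the chain was counted in all 6 libraries, including the 3 in which they had no Il11 UMI.

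Lifr was highest in perivascular macrophages at 165 CPM (139 to 194) and next in microglia at 106 CPM, a ratio of 1.55 (1.31 to 1.83). Smooth muscle and astrocytes followed at 90.2 and 87.0 CPM, oligodendrocytes had 66.0 CPM and endothelial cells 61.3 CPM. Pericytes had 38.8 CPM and monocyte-derived macrophages 14.6 CPM. Astrocytes varied by library, with 177, 105, 75.4, 61.1, 95.8 and 65.8 CPM, highest in library 1 and lowest in library 4. Endothelial cells had 56.6, 52.6, 60.0, 27.3, 118 and 35.3 CPM, highest in library 5 and lowest in libraries 4 and 6. The large endothelial cluster 3 did not share all of that order. Library 4 was lowest there at 32.6 CPM, but library 6 had 52.37 CPM, above libraries 1 and 2 with 47.7 and 44.12 CPM. The intervals of libraries 1, 2, 4 and 6 overlapped. Endothelial cluster 8, found mostly in libraries 4 and 6, had 17.29 and 15.01 CPM there, and the part of cell mix was not tested. Oligodendrocytes were more even, from 59.8 to 72.0 CPM.

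Osmr was found mostly in classes that held little Osm. Vessel wall cells held 76.5% of its 2039 UMIs, astrocytes 13.7% and myeloid cells 0.932%. Pericytes had 103 CPM (91.8 to 115) and endothelial cells 102 CPM, a ratio of 1.01 (0.887 to 1.15), smooth muscle had 52.6 CPM and astrocytes 38.8 CPM. Microglia had 0.289 CPM against a free-RNA level of 0.152 CPM, and perivascular and monocyte-derived macrophages had 2 UMIs each. The share of cells with a UMI was 31% of endothelial cells and 0.111% of microglia, at median depths of 4000 and 5150 UMIs. After thinning of every cell to 1000 UMIs the shares were 9.67% and 0.0246%. The 4 myeloid classes, which held the most Osm, all had Osmr at 2.93 CPM or less.

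The class that varied most in Osmr was the astrocytes, with 3.17, 9.65, 5.86, 86.0, 10.7 and 105 CPM in libraries 1 to 6. Libraries 4 and 6 lay at least 8 times above each of the others by these values. The factor is loose, since library 5 had 2 UMIs in 1 of 31 astrocytes, with an interval of 1.29 to 38.5 CPM. Of the 67 UMIs of library 6, 1 cell held 12 and another, a called doublet, held 10. Both astrocyte clusters had these 2 libraries highest, the larger with 84.4 and 107 CPM against 3.55 to 13.85 CPM in the others and the smaller with 93.1 and 95.7 CPM against 0 to 20.04 CPM, on few UMIs. Pericytes had 49.6, 63.2, 87.8, 125, 66.9 and 185 CPM, highest in the same 2 libraries by a smaller factor. Endothelial cells did not share that order, with 84.0, 104, 137, 145, 70.0 and 73.4 CPM, and library 6 was among their lowest.

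The pericytes included 55 cells, 22 of library 4 and 33 of library 6, that formed a subcluster of their own. It is called the response pericytes here and was picked by Ccl7, Cxcl1, Mt1, Ccl11 and Cxcl2, which the study lists for these samples and which stood at 748, 1632, 5060, 2156 and 432 CPM against 3.03, 14.0, 146, 17.1 and 4.55 CPM in the other 778 pericytes. The 10 family genes and the pathway genes were left out of the clustering, but the cells were chosen by genes that may vary with them. These genes were listed from the same data, in which the study names Il11 and Il6 among the top genes of a pericyte subcluster. High levels of these ligands in the chosen cells are therefore not an independent result, and the comparison is a description with no test. All 8 pericyte markers were present, at 10502 CPM summed against 34785 CPM in the other pericytes. Of 6 fibroblast markers, Col1a1 and Pdgfra were at 0, while the list summed to 1816 CPM against 233 CPM, 197 CPM in library 4 and 2694 CPM in library 6. Most of it was Dcn, 1599 CPM, where fibroblasts had 10152 CPM. Microglial markers summed to 42.9 CPM against 123 CPM, no cell was a called doublet, and the part of the fibroblast markers in the results was not tested.

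The 3 ligands Il11, Il6 and Lif of the pericyte class lay almost wholly in the response pericytes. Il11 had 1475 UMIs there and 8 in the other pericytes, 4862 against 3.03 CPM, a ratio of 1602 (811 to 3719). In library 4 the values were 2822 CPM and no UMI, at least 412-fold higher with 3 counts as the floor over the group, and in library 6 they were 5968 and 21.5 CPM. Il6 had 111 UMIs and 0, at least 322-fold higher, with 431 and 330 CPM in libraries 4 and 6. Lif had 25 UMIs and 1, 82.4 against 0.379 CPM, a ratio of 217 (35.6 to 8921). Without library 3 the Lif ratio was 124, and without library 4 the other pericytes held no Lif UMI. The Il11 ratio was 3326 without library 6 and 278 within library 6 alone. Osm and Clcf1 had no UMI in the response pericytes. The whole pericyte class held only 1 and 5 UMIs of them, so that a difference between the 2 sets could not be seen. Among pericytes, 3 of the 5 ligands thus lay mainly in the response cells. Over all cells this held for Il11 only, since myeloid cells held 76.0% of Il6 and 70.9% of Lif UMIs.

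Within the response pericytes the ligands were unevenly spread. Il11 was counted in 37 of 55 cells, 67.3% (53.3 to 79.3), in 15 of 22 cells of library 4 and 22 of 33 of library 6. The 5 cells with most held 50.2% of the UMIs, and the median among cells with a UMI was 19. Il6 was counted in 25 cells and Lif in 14. Il6 was found in 20 of the 37 cells with Il11 and in 5 of the 18 without, and Lif in 13 and 1. Single cells therefore often held more than 1 of these 3 ligands. The cells were not thinned for these counts, deeper cells hold more UMIs of each gene, and pairing beyond depth was not tested.

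**Figure D3:**
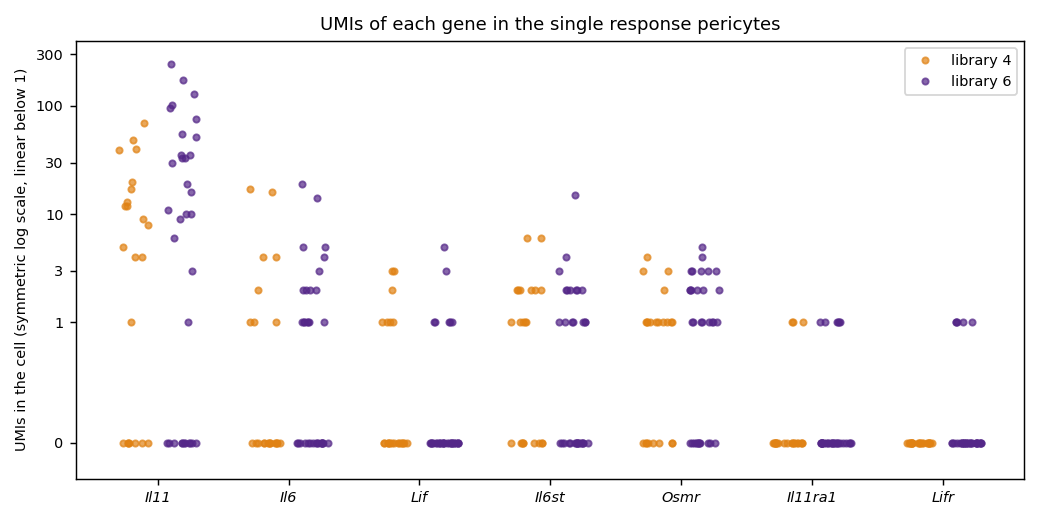
UMIs of 7 genes in each of the 55 response pericytes, 22 of library 4 (orange) and 33 of library 6 (purple), on a symmetric log axis that is linear below 1; points are single cells, spread sideways for legibility. Il11 ranges from 0 to 242 UMIs per cell, while the receptor chains Il6st and Osmr are at a few UMIs in many cells of both libraries.

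The receptor chains of the response pericytes differed by far less. Il6st stood at 231 against 102 CPM, a ratio of 2.27 (1.72 to 2.96), and Osmr at 218 against 89.9 CPM, a ratio of 2.42 (1.81 to 3.19). A single cell of library 6 held 15 of the 70 Il6st UMIs, where that library had 41, so that the pooled and library 6 ratios of Il6st leaned on it. Lifr was lower, 16.5 against 41.3 CPM, a ratio of 0.399 (0.127 to 0.959). For Il11ra1, the chain for the ligand these cells held most, the values were 29.7 and 52.7 CPM, a ratio of 0.563 (0.252 to 1.10). Il6ra had no UMI in the 55 cells and 11 in the others. Within library 6 alone the ratios were 1.62 (1.01 to 2.61) for Il6st and 1.42 (0.914 to 2.21) for Osmr, under 2-fold, and within library 4 they were 2.83 and 1.96. The other pericytes of libraries 4 and 6 had Osmr at 105 and 157 CPM, above the 89.9 CPM of all 778.

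Of the 10 genes, 7 had the 20 UMIs needed for a fold, of which 5 were at least 2-fold higher and 1 at least 2-fold lower. Il11, Il6 and Lif reached that minimum only through the response pericytes, so that their call as higher was fixed in advance. The same held for Il11 and Il6 within each library. The other genes called were Il6st and Osmr, higher, and Lifr, lower. Over 9418 genes, 9.35% were that much higher and 25.7% that much lower. Within library 4, 3 of 5 genes were higher and none lower, with 8.87% and 24.4% of all genes past those limits. Within library 6, 2 of 6 were higher, Il11 and Il6, and 2 were lower, Il11ra1 and Lifr, with 12.1% and 17% of all genes.

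Other genes of the pathway were read from a list of 32, of which 15 had enough UMIs. In the response pericytes 8 were at least 2-fold higher, none was lower and 7 were neither. Over all genes, 9.35% were that much higher and 25.7% that much lower. The transducer Stat3 stood 2.88 times higher. The inhibitor Socs3 was at 125 against 22.0 CPM, a ratio of 5.69 (3.68 to 8.72). Among STAT3 target genes, Bcl3, Cebpb, Cebpd, Junb, Pim1 and Timp1 were 14.7, 7.34, 3.77, 3.58, 9.93 and 170 times higher, and Timp1 is also a known target of other signals. The kinases Jak1 and Jak2, the phosphatase Ptpn11 and the sheddases Adam10 and Adam17 were under 2-fold apart. Within library 4, 7 of 10 genes were higher, with 8.87% of all genes past that limit. Within library 6, 3 of 9 were, namely Cebpb, Cebpd and Timp1, with 12.1% of all genes. Stat3 and Socs3 were thus not called higher within library 6.

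**Figure D4:**
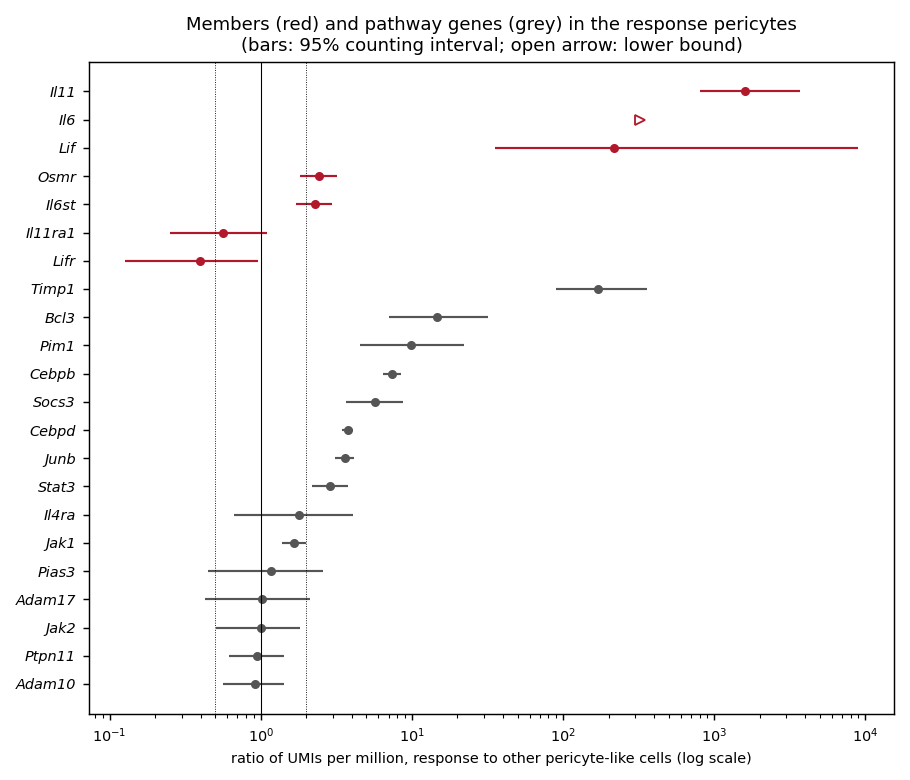
Ratio of CPM levels in the 55 response pericytes to the 778 other pericytes, on a log axis, for the 7 family genes (red) and 15 pathway genes (grey) with enough UMIs; bars are 95% counting intervals, the open arrow is the lower bound for Il6, and dotted lines mark 2-fold. The ligands Il11, Il6 and Lif lie above 200, with a wide interval for Lif that rests on 1 UMI in the other pericytes, and the receptor chains between 0.399 and 2.42.

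Microglia also held states that differed in these genes. Cluster 4, 1364 cells led by Spp1 and Lpl, of which 779 were in library 4 and 546 in library 6, was set beside the large clusters 0 and 1 within each of these libraries, again as a description. Osm stood at 171 against 45.9 CPM in library 4 and 116 against 28.6 CPM in library 6, ratios of 3.73 and 4.04. Lif stood at 9.16 against 2.13 CPM in library 4, and in library 6 at 6.999 CPM against no UMI, at least 2.93-fold higher. Il6ra was lower in both, at 130 against 352 CPM and 103 against 324 CPM, ratios of 0.369 and 0.318. Cluster 4 held more of the ligands Osm and Lif and less of the IL-6 binding chain than clusters 0 and 1 together. For Osm clusters 0 and 1 were unlike, with 77.3 and 10.25 CPM in library 4 and 34.3 and 19.1 CPM in library 6.

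The other chains in cluster 4 differed less. Lifr had ratios of 0.510 and 0.431, Il6st of 0.810 and 0.792, and Il11ra1 of 1.196 and 1.13. Clcf1 was at 0.484 in library 4 and 0.660 in library 6. In library 4, 2 of 8 genes were at least 2-fold higher and 2 lower, with 8.46% and 11.6% of 10904 genes past those limits. In library 6 it was 2 and 2 of 7 genes, with 10.7% and 10.2% of all genes. Lif reached the 20 UMIs needed only through cluster 4 in both libraries. Of the pathway genes, 3 of 20 were higher, 1 lower and 16 neither in library 4, and 2 of 19 higher, 1 lower and 16 neither in library 6, where the share higher was near that of all genes. Those higher were Bcl3 and Pim1 in both libraries, with ratios of 4.19 and 3.504 in library 4 and 3.48 and 5.86 in library 6, and Cebpb in library 4 (2.16). Those lower were Pias3 in library 4 (0.371) and Ebi3 in library 6 (0.314). Cluster 5, 1282 cells led by Cd83, Ccl3 and Il1a, held Osm at 140 CPM with Il6ra at 322 CPM, so that a high Osm level was also found where Il6ra was not low. In library 4 its Osm level, 215.5 CPM (194 to 238.8), lay above the 171.3 CPM of cluster 4. In library 6 it lay below, at 57.7 against 115.7 CPM.

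Endothelial cluster 8, 537 cells led by Ctla2a, Tmem252 and Lcn2, with 176 cells in library 4 and 322 in library 6, was set beside the large cluster 3 in the same way. Il6st stood at 140 against 75.7 CPM in library 4 and 134 against 80.6 CPM in library 6, ratios of 1.84 and 1.66. Osmr had ratios of 1.197 (0.929 to 1.54) and 0.801 (0.599 to 1.08), so that neither library resolved a difference. Lifr was lower, at 0.530 (0.255 to 1.04) in library 4 and 0.287 (0.172 to 0.467) in library 6. None of 5 genes was at least 2-fold higher in either library, and 1 of 5 was lower in library 6, where 9.59% and 8.68% of all genes passed these limits, and 6.07% and 8.67% in library 4.

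Of the pathway genes, 9 of 16 were at least 2-fold higher in these endothelial cells in library 4 and 9 of 18 in library 6, with none lower. Over all genes, 6.07% and 9.59% were that much higher. Both pathway counts include Lcn2, which led the cluster, and how they compare with the 5 family genes was not tested. Socs3 had ratios of 3.38 and 3.64, Bcl3 of 2.77 and 4.52, Il4ra of 3.55 and 10.4, and Icam1, an adhesion molecule for leukocytes, of 2.27 and 3.48. Lcn2 had 17.7 and 37.4. Several of these genes also answer to other inflammatory signals.

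Whether gp130 and a partner chain were counted in the same cell was read in each class. Microglia had Il6st with Il6ra in 30.5% of cells (29.5 to 31.5), where the product of the single shares was 29.2%. Endothelial cells had Il6st with Osmr in 10.4% and with Il6ra in 7.11%, and pericytes had Il6st with Osmr in 9.36% and with Il11ra1 in 4.92%, but with Il6ra in only 0.720%. Astrocytes had Il6st with Lifr in 9.19%, with Il11ra1 in 7.21% and with Osmr in 3.52%. Smooth muscle had Il6st with Il11ra1 in 15.4% and with Osmr in 14.8%. Its median depth was 7450 UMIs, against 4000 in endothelial cells and 3296 in pericytes, so that these shares do not rank the classes. After thinning to 1000 UMIs, Il6st with Il11ra1 was in no smooth muscle cell and in 0.600% of pericytes, with overlapping intervals. For Osmr the thinned shares were 1.775% and 1.44%. Microglia had Il6st with Osmr in 3 of 8122 cells. At the deposited depth many shares lay above the product of the single shares. Intervals did not include it for Il6ra in microglia or for Osmr in endothelial cells (9.29 to 11.65%, product 8.83%). For Osmr in pericytes the interval was 7.47 to 11.55%, with a product of 7.37%. The same was found for other pairs, such as Lifr in microglia (15.54 to 17.16%, product 15.05%) and Il6ra in endothelial cells (6.162 to 8.155%, product 5.807%). The pericyte share with Il6ra was above its product of 0.355%, on 6 cells. Deeper cells hold more UMIs of both genes. After thinning to 1000 UMIs the shares were 2.92% against a product of 2.82% for Il6ra in microglia, 0.715% against 0.738% for Osmr in endothelial cells and 1.44% against 0.866% for Osmr in pericytes. At that depth pairing beyond the product was not detectable in the first 2, and the pericyte interval, 0.747 to 2.50%, included the product. For Il11ra1 in astrocytes the thinned share was 0.601% (0.242 to 1.23) on 7 cells, and this interval did not include the product of 0.232%. Its lower limit lay close to the product, and many pairs of class and chain were read, so that no pairing is concluded from it.

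**Figure D5:**
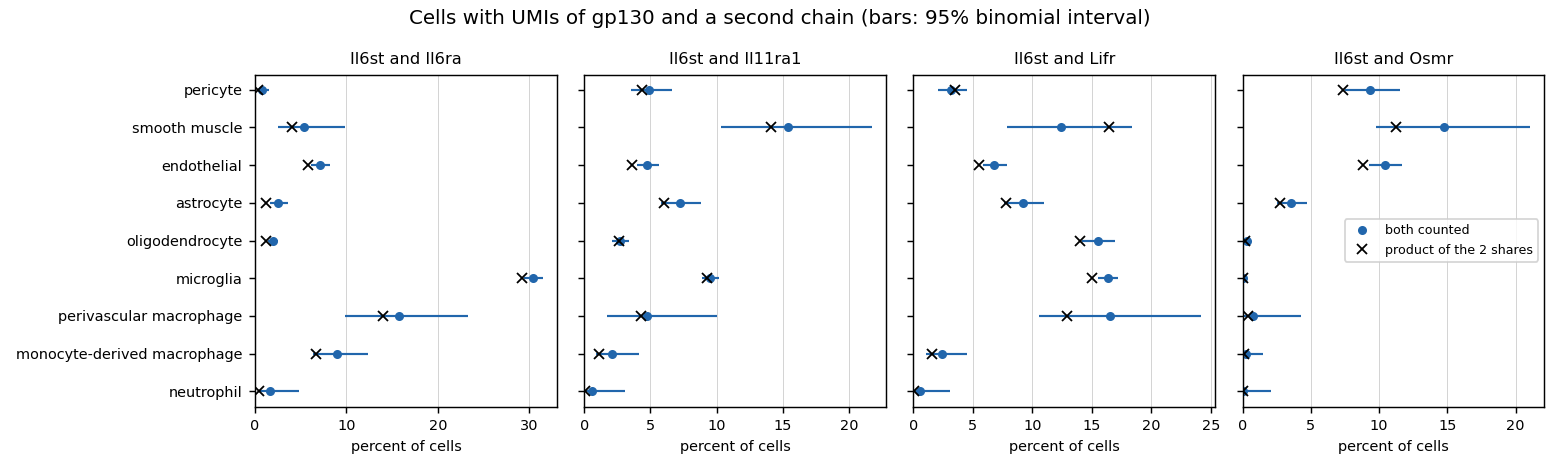
Percent of cells in 9 classes with a UMI of Il6st and of a partner chain, at the deposited depth; points with bars are observed shares with 95% binomial intervals and crosses are the product of the 2 single shares. Il6ra pairs are most frequent in microglia (30.5%), Osmr pairs in smooth muscle, endothelial cells and pericytes, and Osmr pairs are nearly absent in myeloid classes. The classes differ in depth, which also moves these shares.

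The genes most like each family member were read from 50 sums of at least 20 cells, 1 for each class and library, over 12934 genes, as Pearson's r of log2(CPM + 1). These points share libraries and classes, so the values are descriptions. Osm was closest to Igsf6 (r = 0.95), Lrrc25 and Ccl6, and Il6ra to Kctd12 (0.92), Tm6sf1 and Abi3. Osmr was closest to Afap1l2 (0.93), Il17rc (0.92) and Pcdh19 (0.91). Il11 was closest to Lum (0.82), Ccl19 (0.70) and Adamts4 (0.68), and Lif to Ccl7 (0.80), 1 of the 5 genes that picked the response pericytes. Lum is a fibroblast marker, with 89 CPM in the response pericytes, no UMI in the other pericytes and 1426 CPM in fibroblasts. Many of the 50 sums held no Il11 UMI. Il6st was closest to Sec31a (0.83), Il11ra1 to Wdsub1 (0.85), Lifr to Ptgr2 (0.78), Clcf1 to Dok1 (0.70) and Il6 to Ptgr1 (0.62). Among the family members the closest pairs were Il6st with Il11ra1 (0.77) and Osm with Il6ra (0.72).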

How the data were processed

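Counts of UMIs were made by the authors with Cell Ranger (version 5 per the labels, build mm10) and deposited as 1 unfiltered matrix of whole numbers for the 6 libraries, after an aggregation step that by their methods equalised depth between libraries, for which the tool thins reads. The labels name a v3 kit for 1 and 24 h and a v3.1 kit for 12 h, whereas the methods name v3.1 throughout. By the methods, the 1 and 12 h libraries were sequenced on a NovaSeq and the 24 h libraries on a HiSeq instrument. Which library numbers these are is not known, and the part of kit or sequencer in the library values was not tested. No column of any other sample was present. Among the 3000 deepest barcodes of a library the 99th percentile of UMIs was taken, and barcodes with 10% of it or more were called cells, then kept with at least 200 features, at most 10% mitochondrial counts, as the authors did, and at most 5% hemoglobin, which removed 30 of 17357 cells.

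Counts were log-normalised at a scale of 10000 and clustered by Leiden (30 components, 15 for mural cells and macrophages clustered again, 20 neighbours, resolution 0.8), with the 10 family genes and the pathway genes left out of the 2000 variable genes. A cluster needed 3 raised markers of 1 class, a lead of 1 log2 over the next class and at most 50% called doublets. These names are not the authors' own, so that they can be a source of differences from the study. Doublets were called from simulated ones and kept in the values. Free RNA was measured in barcodes of 1 to 50 UMIs. Ratios carry exact conditional intervals, levels exact Poisson and shares Clopper-Pearson intervals at 95%, and a count of 0 allows up to 3 counts. A fold needed 20 UMIs over both sets of cells, and a 2-fold limit. Values of a class by library are given where it had at least 20 cells there, unless the cells are named. No p-value was computed, because each group had 1 library, libraries were not tied to groups and cells are not replicates. The family, the gene lists and the comparisons were chosen with earlier results of these data known. Genes named are the 10 members, the pathway list, markers, leading genes of described clusters, copies of Il11ra1 and the 3 genes most like each member. The steps were tested on simulated data, and all were run with Python 3.11.15, numpy 2.4.6, scipy 1.17.1, pandas 2.3.3, scanpy 1.11.5, leidenalg 0.10.2, igraph 0.11.9 and matplotlib 3.10.9. Promoters are from RefSeq and gene positions from GENCODE vM21. Protein sequences were not used here. A gene taken out of the pathway list and its counts is not reported here, and of the 32 others only some are named.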

Additional observations from a re-analysis of the deposited data

How the results depend on the processing

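The ratio of the highest to the next class was recomputed under 8 settings and without each library. With the response pericytes left out, an alternative chosen after seeing the data, the Il11 ratio of pericytes to smooth muscle reversed to 0.143 and the pericyte level fell from 504 to 3.03 CPM, while the Osmr ratio of pericytes to endothelial cells moved to 0.880. The Il6 ratio of smooth muscle to macrophages moved to 0.712 as a mean of the cells' own CPM, to 0.418 after thinning to 1000 UMIs and to 0.772 without the 1 cell with most UMIs. Thinning also moved the ratio to 0.631 for Clcf1 and 0.754 for Il11ra1. The cause of these moves was not tested. Without 1 library each, the ratios ranged from 0.292 to 3.47 for Il6 (lowest without library 6, highest without library 4), 1.27 to 2.09 for Osm, 0.853 to 1.66 for Clcf1, 0.724 to 1.30 for Il6st, 0.780 to 1.24 for Osmr, 17.9 to 30.7 for Il11 over the 5 libraries that could be left out (without library 6 smooth muscle held no Il11 UMI and there was no ratio), 1.2 to 1.83 for Lif, 1.72 to 1.91 for Il6ra, 0.955 to 1.09 for Il11ra1 and 1.44 to 1.68 for Lifr. The other 125 recomputed ratios stayed within their intervals. Lif, Osm, Il6ra and Lifr kept their highest class in all 14 settings, Il11 in 13, Il11ra1 in 12, Il6, Clcf1 and Il6st in 11 and Osmr in 7. The ratio of response to other pericytes for Il11 was 124 with the study's filters alone, and for Osmr it was 1.51 after thinning, against 2.42. For Lifr it was 0 without library 6, since the 22 response pericytes of library 4 held no Lifr UMI, and for Il11ra1 it was 0 after thinning. No paired analysis was possible because each group had 1 library and no library number is tied to a group. Depth limits the scarce ligands most, with 271 UMIs of Lif and 795 of Clcf1 in all cells.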

Other observations

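Some values of the numbered libraries, which the labels put in no group, fell into separate clusters. Osmr in astrocytes was at 3.17, 9.65, 5.86 and 10.7 CPM in libraries 1, 2, 3 and 5 and at 86.0 and 105 CPM in libraries 4 and 6. Il6ra in microglia was at 419, 344, 388 and 439 CPM in libraries 1, 2, 3 and 5 and at 245 and 165 CPM in libraries 4 and 6. Lif in microglia was at 1.37, 1.04, 0.685 and 1.47 CPM in the first 4 of these and at 5.03 and 4.72 CPM in libraries 4 and 6. Microglial cluster 4, found mostly in libraries 4 and 6, held 51 of the 65 Lif UMIs of library 4 microglia and all 30 of library 6. It was also the cluster with low Il6ra, and the part of cell mix in these splits was not tested. Il6 in microglia followed another split, with library 6 alone at 2.20 CPM and the others between 15.03 and 17.5 CPM.

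A set of 34 mural cells led by Vtn, Ifitm1 and Ccl19, which took no class name and came from all 6 libraries, had the highest Il6st level of the clusters described here, 557 CPM (441 to 694) on 79 UMIs in 27 cells. Its Il6 level was 247 CPM, but the 35 UMIs lay in 3 cells, with 15, 9 and 11 UMIs in libraries 2, 3 and 5 and none in libraries 4 and 6. No Il11 UMI was found in it. Perivascular macrophages held a cluster of 38 cells with Lif at 78.9 CPM, Osm at 297 CPM and Lifr at 223 CPM. The whole class of 127 cells had 20 Lif UMIs in 8 cells, 7 of them in 1 cell, so that the Lif level rested on few cells. A ligand and its receptor chain were thus both counted in this cluster, but whether in the same cells was not read.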
